A study of Homo sapiens with 15 samples.

Results

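Expression of 42 genes of the actomyosin cytoskeleton and of YAP/SRF-regulated transcription was examined in osteosarcoma stem cells (OSCs), in adherent cells of the same line, and in OSCs with PDK1 knockdown. The genes were taken by symbol through their Ensembl identifiers, and 42 of 42 were found among the 62700 genes of both count tables. They comprise actins, non-muscle myosins, tropomyosins, contractile regulators, crosslinkers, focal adhesion and LIM domain proteins, the YAP/TEAD effectors and 3 YAP target genes other than the CCN family.

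The study used 143B, an established human osteosarcoma cell line, and sequenced RNA of 15 libraries, 3 for each of 5 conditions. Non-OSCs were wild-type 143B cells grown attached to plastic in DMEM with fetal bovine serum. OSCs were wild-type 143B cells grown as floating tumorspheres in DMEM/F12 with B27, EGF and basic FGF and without serum, so that attachment, serum and growth factors changed together and cannot be told apart here. The other 9 libraries were OSCs infected with a lentivirus that carries the control vector (shCtrl) or a short hairpin against PDK1 (shPDK1#1 or shPDK1#2, written shPDK1_1 and shPDK1_2 in the labels), and both hairpins were compared with the same shCtrl libraries. Every library came from a single cell line, and the labels do not say whether replicates came from separate cultures, so p-values measure the spread between these libraries, which may be technical.

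Library totals ranged from 7992499 to 11256536 counts. The identity of the cells was checked with marker genes. Of 10 osteoblast lineage markers, 6 were above a mean of 1 CPM, counts scaled to a common library size, in all 5 conditions. COL1A1 and SPP1 had the highest levels, whereas SP7, IBSP and BGLAP were at 0 to 5 counts in the OSC and non-OSC libraries. Of 10 smooth muscle and pericyte markers, 5 were at 3 counts or fewer per library in each condition, and of 7 skeletal and cardiac muscle markers 6 were. The summed level of the 4 epithelial markers ranged from 1097 to 1227 CPM in non-OSCs and from 292 to 302 CPM in OSCs. Nearly all of it came from keratins, KRT18 with means of 1044 and 271 CPM and KRT8 with 124 and 23.0 CPM. EPCAM had only 3.43 and 2.83 CPM, and CDH1 was at 0 to 1 counts in these libraries. The osteoblast sum was 581 to 635 CPM in non-OSCs and 1565 to 1681 CPM in OSCs, although RUNX2, the osteoblast master regulator, had means of 37.7 and 17.3 CPM. The sum of 5 fibroblast markers was 238 to 255 CPM in non-OSCs and 429 to 445 CPM in OSCs. Of these, PDGFRA had means of 177 and 378 CPM, whereas PDPN had 59.7 and 52.7 CPM and FAP 7.1 and 4.1 CPM. DCN had 0.10 and 0.88 CPM and LUM 0.45 and 1.18 CPM. The part of these differences in the results was not tested.

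Non-muscle cells pull on their surroundings through bundles of actin and myosin II that end in focal adhesions. Actin monomer retains the coactivators MRTFA and MRTFB in the cytoplasm, so that actin assembly releases them to act with serum response factor (SRF) on the genes of actin and its binding proteins. The coactivators YAP and TAZ (genes YAP1 and WWTR1) respond to the same tension and act through the DNA-binding TEAD proteins, and the Hippo kinases, among them LATS2, retain them in the cytoplasm. In osteosarcoma and other sarcomas both axes are studied in connection with attachment, spreading and growth.

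Levels were first compared between the genes after division by the length of the canonical transcript. ACTB, the beta cytoplasmic actin, was highest in all 5 conditions, at a mean of 3666 CPM per kb in non-OSCs and 2049 CPM per kb in OSCs. Next in OSCs came PFN1, which loads actin monomers for assembly, at 1629 CPM per kb, CFL1, which severs filaments, at 1125 CPM per kb, and ACTG1, the gamma cytoplasmic actin, at 1031 CPM per kb. At the other end stood genes of differentiated smooth muscle. ACTG2, the enteric smooth muscle actin, CNN1, smooth muscle calponin, and LMOD1, leiomodin, were at 3 counts or fewer in every library, a level that allows no fold change, and did not pass the filter on low counts. ANKRD1, a nuclear ankyrin protein and YAP target, passed it in the OSC and non-OSC libraries only.

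**Figure D1:**
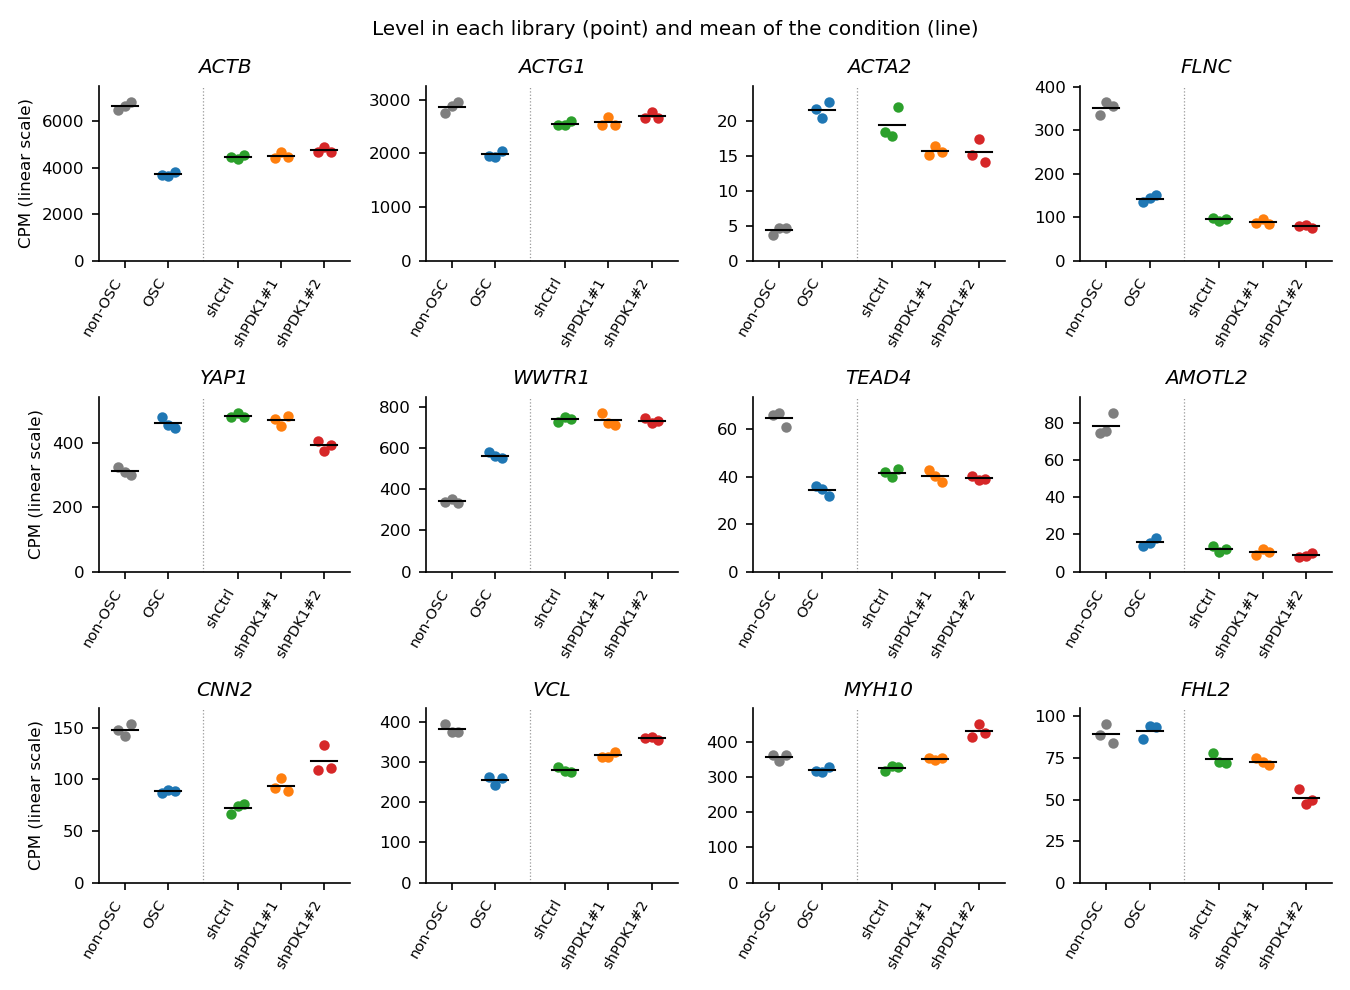
Level in CPM on a linear axis (vertical) in each library of the 5 conditions (horizontal) for 12 of the genes, with libraries as points, means of 3 libraries as lines, and a dotted line between the 2 experiments, which were normalized separately. ACTB, ACTG1, FLNC, TEAD4, AMOTL2, CNN2, VCL and MYH10 were lower in OSCs than in non-OSCs without overlap, ACTA2, YAP1 and WWTR1 were higher, and FHL2 overlapped.

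Promoter sequences were read from RefSeq (GRCh38.p14) to show which of these genes carry the DNA motifs of SRF and TEAD near a start site. Promoters were found for 37 of the 42 genes, 73 promoters in all, and were not found in the table for ACTB, MYL9, TAGLN, TEAD1 and TEAD4. The CArG box, the SRF motif, was searched in its strict form without mismatch, and the TEAD motif was searched as GGAATG or its reverse complement CATTCC, both on either strand in the 250 bases before each start site. The CArG box was present in 10 of the 73 promoters (13.7%), of 8 genes, against 1.16% of all 35116 promoters. GGAATG was present in 17 of the 73 promoters (23.3%), of 16 genes, against 11.9% of all promoters. The genes were chosen for their known link to SRF and YAP, several of them have more than 1 promoter, and the matches of the CArG box and GGAATG did not overlap in any of them. A match is a description of the letters and does not show binding.

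The stretches below carry the motif in capitals and hold no annotated exon of the gene. ACTG1, CNN2, FHL2 and FLNA are shown for their CArG box, because the first 2 are a cytoplasmic actin and the calponin that changed with both hairpins, FHL2 had the largest fall with shPDK1#2 and FLNA is the most abundant crosslinker. They lie at chr17:81512852-81512933 (minus strand), chr19:1026479-1026568 (plus strand), chr2:105438565-105438654 (minus strand) and chrX:154374679-154374768 (minus strand). Each is written 5′ to 3′ on the strand of its gene.
ACTG1: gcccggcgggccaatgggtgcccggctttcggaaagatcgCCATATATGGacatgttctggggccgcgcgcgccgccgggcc
CNN2: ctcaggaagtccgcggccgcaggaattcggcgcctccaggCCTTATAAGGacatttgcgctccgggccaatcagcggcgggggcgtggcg
FHL2: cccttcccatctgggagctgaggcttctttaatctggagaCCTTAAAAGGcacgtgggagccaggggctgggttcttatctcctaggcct
FLNA: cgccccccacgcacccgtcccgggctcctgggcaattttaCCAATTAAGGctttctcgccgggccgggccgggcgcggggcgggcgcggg

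ANKRD1, FLNC, VCL and YAP1 are shown for GGAATG or CATTCC. ANKRD1 is the target gene with 2 copies of the motif, FLNC had the largest fall in OSCs among the structural proteins over 10 CPM, VCL changed with both hairpins, and YAP1 is the coactivator itself. They lie at chr10:90921170-90921337 (minus strand), chr7:128830263-128830348 (plus strand), chr10:73997905-73997990 (plus strand) and chr11:102110245-102110330 (plus strand).
ANKRD1: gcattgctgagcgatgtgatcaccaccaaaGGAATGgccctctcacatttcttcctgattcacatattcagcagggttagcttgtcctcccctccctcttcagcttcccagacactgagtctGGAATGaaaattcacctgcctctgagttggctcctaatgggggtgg
FLNC: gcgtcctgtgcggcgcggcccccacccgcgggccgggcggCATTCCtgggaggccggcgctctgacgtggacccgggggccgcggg
VCL: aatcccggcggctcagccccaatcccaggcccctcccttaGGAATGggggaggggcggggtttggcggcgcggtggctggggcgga
YAP1: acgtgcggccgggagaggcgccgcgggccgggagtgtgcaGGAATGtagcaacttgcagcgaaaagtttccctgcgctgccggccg

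Sphere culture was then compared with adherent culture. Cytoplasmic actins, crosslinkers, monomer-binding proteins and focal adhesion proteins were lower in OSCs, and the YAP targets AMOTL2 and ANKRD1 showed the largest falls of all. ACTA2, the smooth muscle alpha actin, rose 4.95-fold, and YAP1 and WWTR1 rose together with the light chains MYL6 and MYL12A. Of 39 genes tested with edgeR, 33 passed an adjusted p of 0.05 (84.6%), 25 lower and 8 higher. The background was high, because 63.9% of all 14287 genes tested passed, 31.5% lower and 32.4% higher. The median log2 fold change was -0.19 over the 39 genes and -0.01 over all genes tested. OSC and non-OSC libraries did not overlap for 34 of the 39 genes, against 66.9% of all genes. In bulk RNA, fewer cells of a type and less RNA per cell cannot be told apart.

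**Figure D2:**
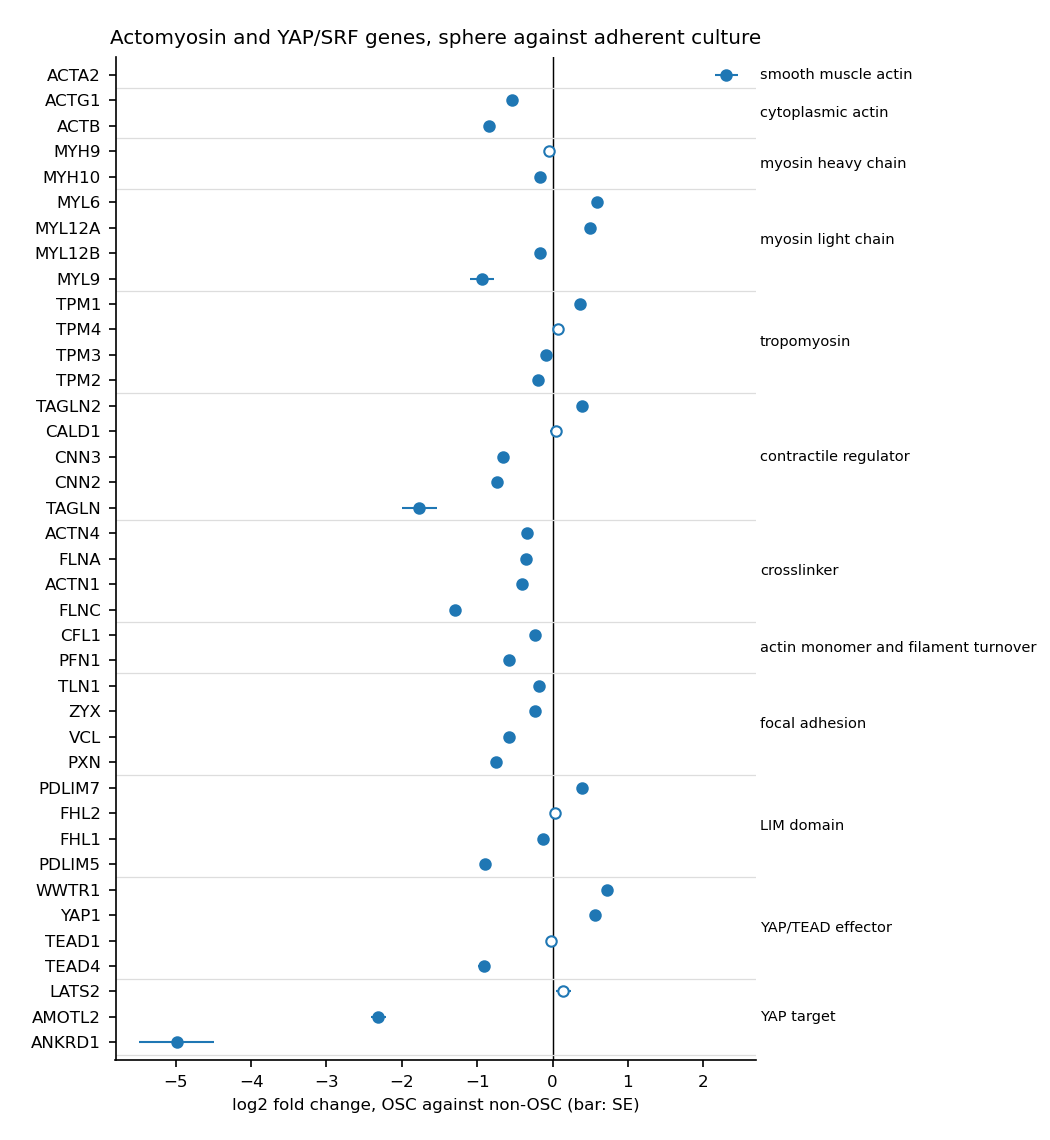
Log2 fold change of OSCs against non-OSCs (horizontal) for the 39 genes tested, grouped by role (vertical), with edgeR estimates as points, standard errors as bars and filled points for an adjusted p under 0.05. All points of the cytoplasmic actins, crosslinkers, turnover and focal adhesion proteins lie left of 0, ACTA2 lies farthest right at 2.31, and the point of ANKRD1 depends on the prior count because its OSC libraries held 0 to 3 counts.

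ACTB was at 6475, 6632 and 6821 CPM in the non-OSC libraries and at 3684, 3632 and 3820 CPM in the OSC libraries. The groups did not overlap, and ACTB fell by 0.84 on the log2 scale (SE 0.03, adjusted p = 1.05e-15), a 1.79-fold lower mean. ACTG1 was at 2754, 2892 and 2959 CPM in non-OSCs and at 1952, 1937 and 2047 CPM in OSCs. It fell by 0.54 on the log2 scale (SE 0.04, adjusted p = 1.79e-11), less than ACTB. ACTG1 therefore made up 33.5% ± 0.13 (SD, n = 3) of both cytoplasmic actins per length in OSCs and 29.0% ± 0.27 in non-OSCs.

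ACTA2, which smooth muscle, myofibroblasts and some mesenchymal tumor cells express, went the other way. It was at 3.66, 4.71 and 4.74 CPM in the non-OSC libraries and at 21.7, 20.4 and 22.7 CPM in the OSC libraries, which separates the groups by a wide gap at a low level. The log2 fold change was 2.31 ± 0.15 (SE), with an adjusted p of 1.72e-11. Both smooth muscle actins together were still only 0.517% ± 0.015 (SD, n = 3) of the 4 actins per length in OSCs, against 0.0640% ± 0.0074 in non-OSCs. ACTA2 shares 36.0% of its exon bases with genes on the opposite strand, FAS and ACTA2-AS1. Since the library kit named in the labels is not described as strand-specific, reads there may belong to either gene. FAS, the death receptor, also rose, from 2.42 ± 0.49 to 6.15 ± 1.51 CPM (SD, n = 3), with an adjusted p of 0.000171, and its part in the change of ACTA2 was not tested. Among the 10 smooth muscle and pericyte markers, whose summed level was 203 to 221 CPM in non-OSCs and 178 to 187 CPM in OSCs, 5 were at 3 counts or fewer per library, MYOCD and DES among them. SMTN, smoothelin, had means of 159.5 CPM in non-OSCs and 88.7 CPM in OSCs, whereas SYNM, an intermediate filament protein, had 43.8 and 71.8 CPM and NOTCH3, a pericyte receptor, 7.18 and 19.2 CPM. The part of such markers in the change of ACTA2 was not tested.

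The myosin II heavy chains changed little. MYH9, non-muscle myosin IIA, had mean levels of 1693 CPM in non-OSCs and 1634 CPM in OSCs, and its adjusted p was 0.257 (log2 fold change -0.05 ± 0.04 SE). It passed as lower with a replicate block (adjusted p = 0.0475) or without non-OSC replicate 1 (0.0278). MYH10, non-muscle myosin IIB, fell by 0.16 on the log2 scale, with an adjusted p of 0.0030. The light chains were split. MYL6, the essential light chain, rose from 132, 126 and 133 CPM to 205, 198 and 186 CPM (log2 fold change 0.59 ± 0.05, adjusted p = 3.65e-09).

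MYL12A and MYL12B are neighboring paralogs of the regulatory light chain, and they moved in opposite directions. MYL12A was at 280, 272 and 259 CPM in non-OSCs and at 398, 382 and 365 CPM in OSCs, without overlap (log2 fold change 0.50 ± 0.05, adjusted p = 6.51e-09). MYL12B fell by 0.17 (SE 0.04, adjusted p = 0.00234). Less than 1% of the 75-base stretches of each occurs in another annotated gene, 0.416% for MYL12A and 0.346% for MYL12B. MYL9, another regulatory light chain and an SRF target, was at 14.5, 18.7 and 17.5 CPM in non-OSCs and at 6.90, 9.31 and 10.1 CPM in OSCs. Its log2 fold change was -0.93 ± 0.16, with an adjusted p of 2.19e-05.

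Tropomyosins coat actin filaments and gate myosin. TPM1 rose by 0.36 on the log2 scale (adjusted p = 1.69e-06), TPM2 fell by 0.19 (adjusted p = 0.00418) and TPM3 fell by 0.09 (adjusted p = 0.0323), a call that 6 of 12 alternatives removed, among them library size alone (adjusted p = 0.19), no filter on low counts (0.0909), non-OSC replicate 1 left out (0.0691) and any OSC replicate left out (0.0684 to 0.13). TPM4 was at 589, 591 and 599 CPM in non-OSCs and 624, 629 and 623 CPM in OSCs, with an adjusted p of 0.0805. With library size alone (adjusted p = 0.010) or a replicate block (0.0174) it passed. TPM1 made up 21.3% ± 0.68 (SD, n = 3) of the 4 tropomyosins per length in OSCs and 16.9% ± 0.25 in non-OSCs. TPM1 shares 22.7% of its exon bases with genes on the opposite strand.

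Among the contractile regulators, the 3 that fell were TAGLN, CNN2 and CNN3. TAGLN, or transgelin, a calponin-like SRF target, had 7.79 ± 0.87 CPM in non-OSCs and 2.27 ± 0.26 CPM in OSCs (log2 fold change -1.77 ± 0.23, adjusted p = 8.68e-07). It is uncertain because 35.6% of its 75-base stretches occur in another gene model and 34.1% of its exon bases lie opposite PCSK7, whose own adjusted p was 0.431. CNN2 fell by 0.74 and CNN3 by 0.66, both non-muscle calponins. TAGLN2, the transgelin of non-muscle cells, was at 577, 607 and 629 CPM in non-OSCs and at 761, 788 and 838 CPM in OSCs. It rose by 0.40 on the log2 scale (SE 0.04, adjusted p = 7.73e-08), opposite to TAGLN. CALD1, caldesmon, had an adjusted p of 0.631 (log2 fold change 0.04 ± 0.07).

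All 4 crosslinkers fell, where 31.5% of all genes tested were called lower. FLNC, the filamin of muscle and stressed cells, was at 335, 365 and 356 CPM in non-OSCs and at 135, 144 and 151 CPM in OSCs. Its log2 fold change of -1.30 ± 0.05 (adjusted p = 4.51e-15) was farther from 0 than those of FLNA, at -0.35 ± 0.03, ACTN1, at -0.41 ± 0.04, and ACTN4, at -0.34 ± 0.05. Both genes of filament turnover fell, PFN1 by 0.58 and CFL1 by 0.24. The 4 focal adhesion genes were all lower in OSCs, PXN (paxillin) by 0.75, VCL (vinculin, which ties talin to actin) by 0.58, ZYX (zyxin) by 0.23 and TLN1 (talin, the integrin activator) by 0.18 on the log2 scale. PXN has exon bases shared with opposite genes (27.2%), as have CFL1 (19.0%), MYL6 (16.3%), ACTN4 (14.2%), VCL (11.1%), YAP1 (10.1%), CNN2 (9.29%) and WWTR1 (9.05%), and reads there may belong to either gene.

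The LIM domain proteins did not move as a group. PDLIM5, which binds alpha-actinin, was at 189, 174 and 186 CPM in non-OSCs and at 105, 96.5 and 93.5 CPM in OSCs (log2 fold change -0.90 ± 0.06, adjusted p = 1.45e-11). PDLIM7 rose by 0.39 (adjusted p = 1.13e-06). FHL1 fell by 0.13, a call lost in 4 of 12 alternatives, with library size alone (adjusted p = 0.0704) and without non-OSC replicate 3 (0.0645), OSC replicate 2 (0.0847) or OSC replicate 3 (0.0989). FHL2, a LIM-only cofactor, had an adjusted p of 0.666.

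Of the 4 YAP/TEAD effectors, 2 rose and 1 fell, and of the 3 YAP targets 2 fell. Over all genes tested, 32.4% were called higher and 31.5% lower, and sets this small allow no comparison with those shares. YAP1 was at 324, 309 and 302 CPM in non-OSCs and at 480, 457 and 446 CPM in OSCs (log2 fold change 0.56 ± 0.05, adjusted p = 4.28e-10). WWTR1 was at 337, 353 and 334 CPM in non-OSCs and at 580, 559 and 551 CPM in OSCs (log2 fold change 0.72 ± 0.04, adjusted p = 2.50e-12). Every OSC library was above every non-OSC library for both genes. TEAD1 was at 235, 208 and 203 CPM in non-OSCs and at 221, 215 and 203 CPM in OSCs, with overlap and an adjusted p of 0.797. TEAD4 was at 66.2, 67.0 and 61.0 CPM in non-OSCs and at 36.3, 34.7 and 32.1 CPM in OSCs. The fall of TEAD4 by 0.91 (SE 0.08, adjusted p = 1.89e-09) lowered its share of the sum of TEAD1 and TEAD4 per length from 62.4% ± 1.54 to 47.1% ± 0.47 (SD, n = 3).

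AMOTL2, an angiomotin that binds YAP at junctions and is itself a YAP target, was at 74.3, 75.5 and 85.4 CPM in non-OSCs and at 13.7, 15.7 and 17.9 CPM in OSCs. The groups were far apart, and the log2 fold change was -2.31 ± 0.10 (adjusted p = 9.38e-15), a 4.98-fold lower mean. ANKRD1 had 53, 50 and 47 counts in the non-OSC libraries and 0, 1 and 3 counts in the OSC libraries. Since no OSC library exceeded the floor of 3 counts per library, its mean was at least 15.2-fold lower (adjusted p = 1.35e-08), and the median log2 fold change over the 39 genes was -0.19 also with ANKRD1 at this bound. LATS2, the Hippo kinase and YAP target, was at 23.9, 28.5 and 24.6 CPM in non-OSCs and at 28.7, 27.0 and 29.2 CPM in OSCs. These overlapped, and the adjusted p was 0.219 (log2 fold change 0.14 ± 0.10).

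The genes together took 2.41% of all counts in OSCs (range 2.40 to 2.44) and 3.01% in non-OSCs (range 2.93 to 3.06). The difference of -0.59 percentage points separated all libraries, with an exact two-sided permutation p of 0.1, the smallest that 3 against 3 libraries allow. A fit with TMM factors computed without these genes called 33 of them as well. The summed share is weighted toward abundant genes. ACTB had means of 6643 CPM in non-OSCs and 3712 CPM in OSCs, and FLNA 5168 and 4058 CPM. The share does not describe each gene, since 12 of the 39 tested had a log2 fold change above 0.

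**Figure D3:**
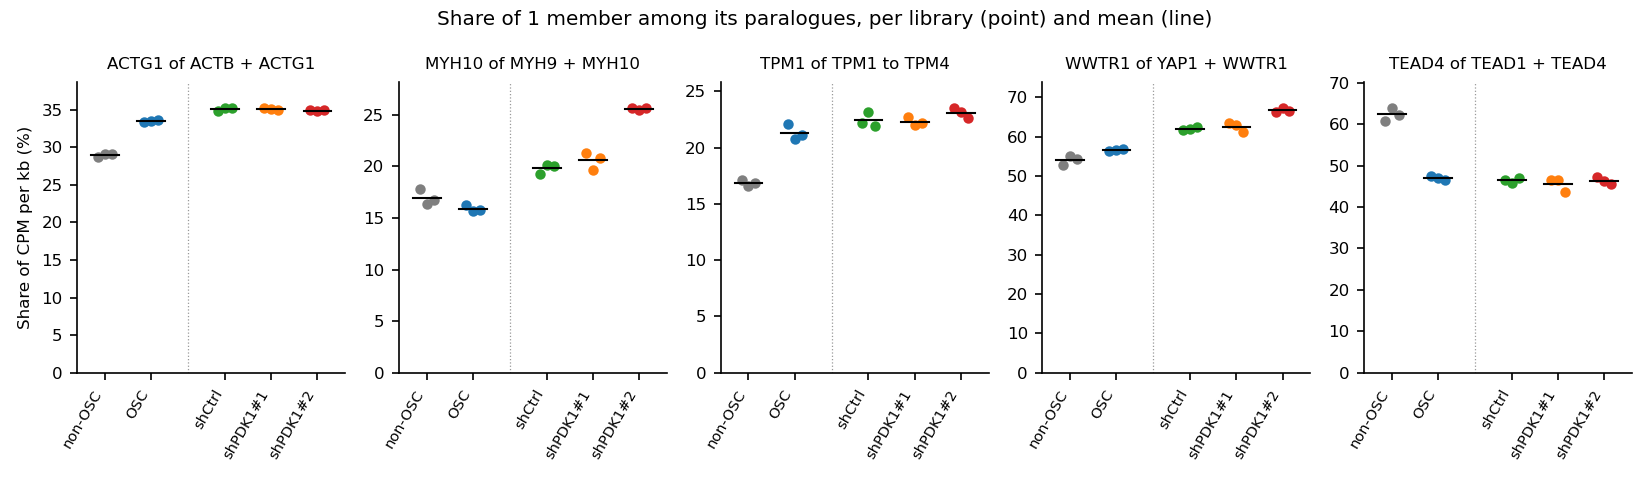
Share of 1 gene among its paralogs in percent of CPM per kb (vertical, from 0) for the 5 conditions (horizontal), with libraries as points, means of 3 libraries as lines and a dotted line between the separately normalized experiments. TEAD4 fell from 62.4% in non-OSCs to 47.1% in OSCs, and MYH10 stood at 25.6% with shPDK1#2 against 19.8% in shCtrl libraries.

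Other genes of the same pathways were described by counts. Of 24 Hippo pathway regulators, 12 were higher and 8 lower in OSCs (83.3%, against 63.9% of all genes, of which 32.4% were higher and 31.5% lower), with a median log2 fold change of 0.11. DCHS1, an atypical cadherin upstream of the Hippo kinases, rose by 1.13 on the log2 scale (adjusted p = 3.13e-13), and AMOT, the founding angiomotin, by 0.86 (adjusted p = 1.90e-06). WWC1, the scaffold KIBRA, fell by 1.69 (adjusted p = 1.46e-12), and VGLL3, a TEAD cofactor, by 0.96 (adjusted p = 2.46e-09).

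Of 18 further YAP/TEAD target genes, 9 were lower and 5 higher (77.8%, against the same 63.9% of all genes), with a median log2 fold change of -0.63. DLC1, a protein of focal adhesions, fell by 2.04 (adjusted p = 4.81e-16), and MYOF, a membrane repair protein, by 1.58 (adjusted p = 6.71e-18). GADD45A, a stress-responsive cell cycle regulator, rose by 1.55 (adjusted p = 7.81e-16), and F3, tissue factor, by 1.45 (adjusted p = 2.84e-09).

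Of 24 genes of actin nucleation and dynamics, 9 were higher and 7 lower (66.7%, median 0.07), a share near the 63.9% of all genes, led by GSN (gelsolin, which severs filaments), up by 1.25, and TMSB4X (thymosin beta-4, which sequesters monomer), up by 0.89. The largest falls of that list were those of WDR1, a cofilin cofactor, by 0.49 and PFN2, the neuronal profilin, by 0.48. Of 24 other adhesion and crosslinking genes, 22 were tested, 7 were higher and 6 lower (59.1%, median -0.01), a share below that of all genes, and SVIL, the membrane linker supervillin, rose by 1.53 (adjusted p = 3.90e-16). PDLIM1, a LIM protein of actin bundles, fell by 0.77 and CSRP1, an actin-bundling LIM protein, by 0.47.

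PDK1 knockdown in OSCs was examined next. In the sphere experiment, PDK1 was at 45.4, 51.6 and 42.9 CPM in the non-OSC libraries. It was at 73.6, 69.9 and 67.5 CPM in the OSC libraries, without overlap. PDK1 was at 46.7, 44.7 and 44.4 CPM in the shCtrl libraries, at 29.0, 27.8 and 27.3 CPM under shPDK1#1 and at 18.3, 21.5 and 19.6 CPM under shPDK1#2. All libraries with a hairpin were below all shCtrl libraries. PDK1 fell by 0.69 with shPDK1#1 (SE 0.08, adjusted p = 7.13e-06) and by 1.19 with shPDK1#2 (SE 0.09, adjusted p = 5.89e-11), and was lower with shPDK1#2 than with shPDK1#1 (log2 fold change -0.50 ± 0.09, adjusted p = 0.000240).

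With shPDK1#1, few of the genes moved. CNN2, VCL and TPM4 rose, and 0 genes were called lower. These were 3 of 38 tested (7.89%), against 3.06% of all 14574 genes tested, of which 1.62% were higher and 1.44% lower. The libraries did not overlap for 11 of the 38, against 19.3% of all genes. The median log2 fold change was 0.01 over the 38 genes and 0.002 over all genes tested. The count depended on single libraries, since it was 1 without shCtrl replicate 2, 1 without shCtrl replicate 3 and 1 without shPDK1#1 replicate 3.

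CNN2 was at 66.4, 74.7 and 76.0 CPM in shCtrl libraries and at 91.9, 101 and 89.1 CPM with shPDK1#1. Every hairpin library was higher, and the log2 fold change was 0.38 ± 0.07 (adjusted p = 0.00332). VCL was at 287, 277 and 277 CPM in shCtrl libraries and at 313, 312 and 326 CPM with shPDK1#1 (log2 fold change 0.18 ± 0.04, adjusted p = 0.00836). The call for VCL was lost without shCtrl replicate 2 (adjusted p = 0.0613), shCtrl replicate 3 (adjusted p = 0.0535) or shPDK1#1 replicate 3 (adjusted p = 0.0847). TPM4 was at 635, 629 and 630 CPM in shCtrl libraries and at 693, 677 and 694 CPM with shPDK1#1 (log2 fold change 0.12 ± 0.03, adjusted p = 0.0430), a call that 9 of 16 alternatives removed. CNN2 was the only one of these called under every alternative.

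With shPDK1#2, 17 of the 38 genes changed (44.7%), against 26.2% of all genes. MYL9, CNN2, MYH10, PDLIM5, VCL, CFL1 and ACTB rose, 7 genes against a background of 12% higher, and 10 genes fell against a background of 14.2% lower, FHL2, AMOTL2, TAGLN2, YAP1, FLNC, PDLIM7, CALD1, FHL1, MYL12B and MYL12A. None changed by more than 2-fold. The libraries did not overlap for 25 of the 38, against 39.5% of all genes, and the median log2 fold change was -0.02 over the 38 genes and 0.01 over all genes. The shPDK1#2 libraries also had more of the osteoblast markers, a summed level of 3688 to 3833 CPM against 2353 to 2451 CPM in shCtrl and 2631 to 2662 CPM in shPDK1#1 libraries, mostly from COL1A1 and SPP1. Whether this bears on the changes was not tested.

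**Figure D4:**
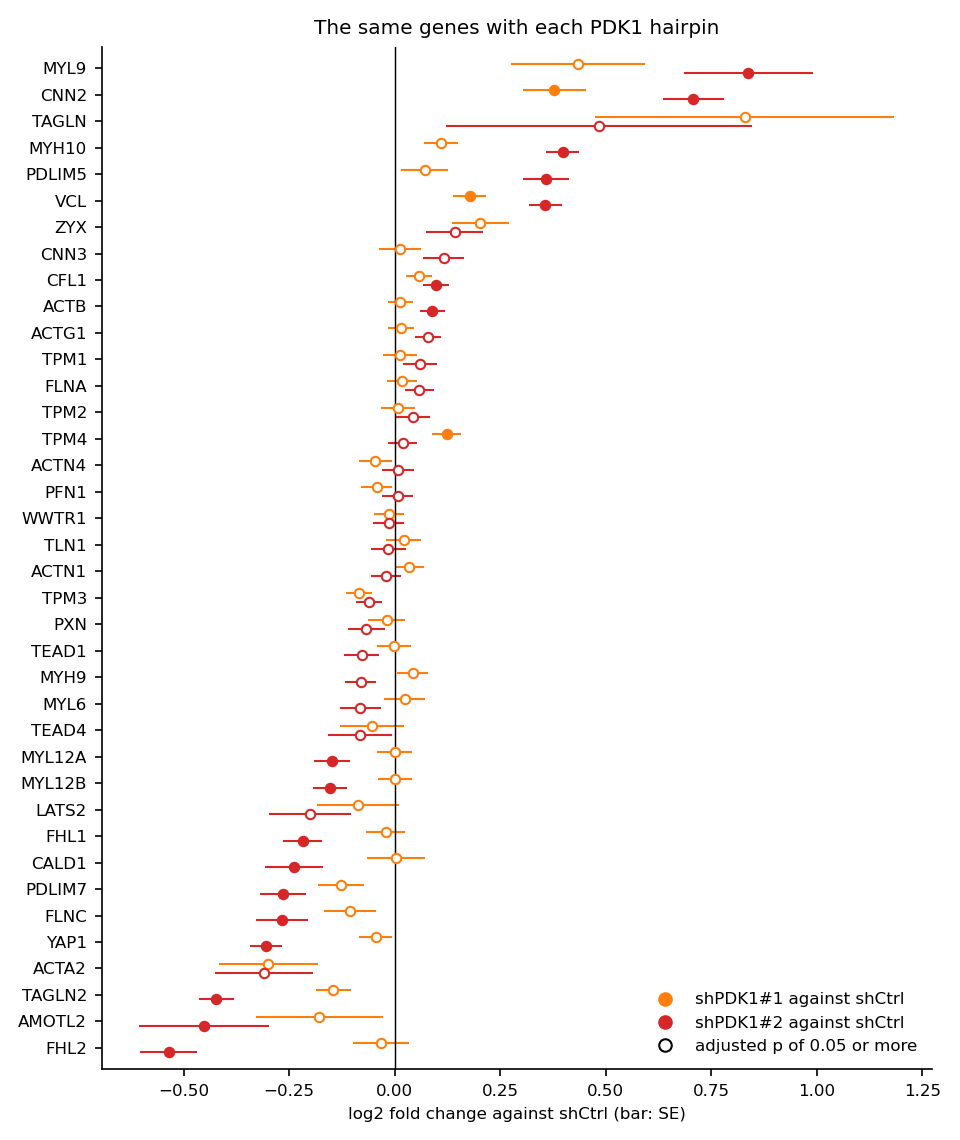
Log2 fold change against shCtrl (horizontal) of the 38 genes tested (vertical, ordered by shPDK1#2) with shPDK1#1 (orange) and shPDK1#2 (red), which share the shCtrl libraries, with standard errors as bars and filled points for an adjusted p under 0.05. CNN2 and VCL are filled for both hairpins, and FHL2 is lowest with shPDK1#2 at -0.54 and near 0 with shPDK1#1 at -0.03.

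MYL9, CNN2, MYH10, PDLIM5 and VCL had the largest rises with shPDK1#2. MYL9 was at 6.91, 6.53 and 8.45 CPM in shCtrl libraries, 10.3, 10.5 and 8.75 CPM under shPDK1#1 and 11.5, 13.6 and 13.9 CPM under shPDK1#2. The shPDK1#2 libraries stood above all others (log2 fold change 0.84 ± 0.15, adjusted p = 0.000146), and the value with shPDK1#1 was 0.43 ± 0.16 (adjusted p = 0.166). CNN2 reached 110, 133 and 111 CPM with shPDK1#2 (log2 fold change 0.71 ± 0.07, adjusted p = 3.30e-08), above its level with shPDK1#1 (difference 0.33 ± 0.07, adjusted p = 0.00143).

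MYH10 was at 318, 333 and 329 CPM in shCtrl libraries, 355, 350 and 353 CPM under shPDK1#1 and 415, 451 and 426 CPM under shPDK1#2. The 3 conditions did not overlap, and the log2 fold change with shPDK1#2 was 0.40 ± 0.04 (adjusted p = 1.99e-08), against 0.11 ± 0.04 with shPDK1#1 (adjusted p = 0.165). MYH9 did not pass against shCtrl with either hairpin (adjusted p = 0.668 and 0.115), but it passed as lower without shPDK1#2 replicate 2 (0.0225 with shPDK1#2). MYH10 thus made up 25.6% ± 0.089 (SD, n = 3) of both heavy chains per length with shPDK1#2, 20.6% ± 0.84 with shPDK1#1 and 19.8% ± 0.50 with shCtrl, where the exact p of 0.1 for shPDK1#2 against shCtrl was the smallest possible.

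PDLIM5 was at 97.9, 103 and 103 CPM in shCtrl libraries, 113, 102 and 105 CPM under shPDK1#1 and 124, 129 and 137 CPM under shPDK1#2 (log2 fold change with shPDK1#2 of 0.36 ± 0.05, adjusted p = 1.41e-05). VCL reached 359, 362 and 355 CPM with shPDK1#2, above every shPDK1#1 library (log2 fold change against shCtrl 0.36 ± 0.04, adjusted p = 8.39e-08). For both genes the level with shPDK1#2 was higher than with shPDK1#1, at adjusted p = 0.000391 for PDLIM5 and 0.00149 for VCL.

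The cytoplasmic actins changed little. ACTB was at 4459, 4389 and 4526 CPM in shCtrl libraries, 4397, 4650 and 4455 CPM under shPDK1#1 and 4656, 4902 and 4673 CPM under shPDK1#2. Its rise with shPDK1#2 was 0.09 on the log2 scale (SE 0.03, adjusted p = 0.0253) and was lost without shCtrl replicate 1 (adjusted p = 0.0535), shCtrl replicate 2 (0.111) or shPDK1#2 replicate 2 (0.122). ACTG1 was at 2528, 2523 and 2600 CPM in shCtrl libraries, 2533, 2670 and 2530 CPM under shPDK1#1 and 2650, 2767 and 2659 CPM under shPDK1#2, with adjusted p of 0.883 and 0.0609. With shPDK1#2, ACTG1 passed with a replicate block (adjusted p = 0.0411) or without shPDK1#1 replicate 2 (0.0262). CFL1 rose by 0.10 with shPDK1#2 (adjusted p = 0.0217), a call lost when any of the 3 libraries named for ACTB was left out.

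FHL2 showed the largest fall. It was at 78.1, 72.9 and 71.9 CPM in shCtrl libraries, 74.9, 72.5 and 70.7 CPM under shPDK1#1 and 56.2, 47.5 and 49.9 CPM under shPDK1#2. Only the shPDK1#2 libraries stood apart (log2 fold change -0.54 ± 0.07, adjusted p = 1.11e-06), and the direct comparison of the hairpins gave -0.50 ± 0.07 (adjusted p = 5.81e-06). TAGLN2 was at 730, 699 and 754 CPM in shCtrl libraries, 646, 681 and 646 CPM under shPDK1#1 and 515, 578 and 536 CPM under shPDK1#2. Its fall with shPDK1#2 was 0.42 (SE 0.04, adjusted p = 1.55e-08), and the value with shPDK1#1, -0.15 ± 0.04, missed the threshold at an adjusted p of 0.0528 and passed in 9 of 16 alternatives.

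YAP1 was at 482, 494 and 480 CPM in shCtrl libraries, 473, 454 and 483 CPM under shPDK1#1 and 407, 376 and 395 CPM under shPDK1#2. It fell by 0.30 with shPDK1#2 (SE 0.04, adjusted p = 1.11e-06) and was lower than with shPDK1#1 (log2 difference -0.26 ± 0.04, adjusted p = 2.22e-05). WWTR1 was at 726, 753 and 742 CPM in shCtrl libraries, 771, 722 and 710 CPM under shPDK1#1 and 746, 722 and 730 CPM under shPDK1#2, with overlap throughout (log2 fold changes -0.01 ± 0.04 for both, adjusted p = 0.925 and 0.821). WWTR1 was therefore 66.7% ± 0.54 (SD, n = 3) of YAP1 and WWTR1 per length with shPDK1#2 against 62.1% ± 0.30 with shCtrl.

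The TEAD genes did not pass with either hairpin. TEAD1 was at 266, 261 and 268 CPM in shCtrl libraries, 270, 254 and 270 CPM under shPDK1#1 and 248, 249 and 257 CPM under shPDK1#2 (adjusted p = 0.993 and 0.178). TEAD4 was at 42.2, 39.9 and 43.2 CPM, 42.8, 40.2 and 38.0 CPM, and 40.3, 38.7 and 39.1 CPM in the same order (adjusted p = 0.827 and 0.473). For TEAD4 all 3 conditions overlapped.

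AMOTL2 was at 13.8, 10.5 and 12.2 CPM in shCtrl libraries, 9.20, 12.1 and 10.7 CPM under shPDK1#1 and 7.92, 8.70 and 10.1 CPM under shPDK1#2. It fell by 0.45 with shPDK1#2 (SE 0.15, adjusted p = 0.0304), but DESeq2 gave an adjusted p of 0.0701, and leaving out shCtrl replicate 1 or 3, or shPDK1#2 replicate 1 or 2, also removed the call (adjusted p = 0.0651 to 0.16). LATS2 was at 23.5, 23.5 and 23.2 CPM in shCtrl libraries, 21.6, 23.6 and 21.0 CPM under shPDK1#1 and 21.0, 18.7 and 21.4 CPM under shPDK1#2 (adjusted p = 0.760 and 0.140). ANKRD1 was at 0 to 1 counts in shCtrl libraries, 0 to 2 under shPDK1#1 and 3 to 7 under shPDK1#2. It did not pass the filter on low counts and was not tested, so no direction was called at this level.

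The remaining calls with shPDK1#2 were small falls. FLNC fell by 0.27, PDLIM7 by 0.26, CALD1 by 0.24, FHL1 by 0.22, and MYL12B and MYL12A by 0.15 each on the log2 scale. The calls for CALD1 and MYL12A were lost without single libraries, CALD1 without shCtrl replicate 2 (adjusted p = 0.0952) and MYL12A without shCtrl replicate 3 (0.0552) or shPDK1#2 replicate 2 (0.0571). ACTA2 was at 18.4, 17.8 and 22.0 CPM in shCtrl libraries, 15.2, 16.3 and 15.5 CPM under shPDK1#1 and 15.2, 17.4 and 14.2 CPM under shPDK1#2. All hairpin libraries were below all shCtrl libraries, yet neither comparison passed (log2 fold changes -0.30 ± 0.12 and -0.31 ± 0.12, adjusted p = 0.207 and 0.0510). With shPDK1#2 it passed in 5 of 16 alternatives (adjusted p = 0.0272 to 0.0493), among them those without shCtrl replicate 2, shPDK1#1 replicate 2 or shPDK1#2 replicate 2. TAGLN had log2 values of 0.83 ± 0.35 and 0.48 ± 0.36, at adjusted p = 0.260 and 0.361, from means under 3 CPM. The genes that passed with neither hairpin included all of ACTN1, ACTN4, FLNA, PXN, TLN1, ZYX, PFN1, CNN3, MYL6, TPM1, TPM2 and TPM3, and missing the threshold does not show that they were the same. Among the alternatives, ZYX passed with shPDK1#1 without a filter on low counts (adjusted p = 0.0202) or without shCtrl replicate 1 (0.0329). With shPDK1#2, ZYX passed without shCtrl replicate 1 (0.0227).

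The hairpins were compared directly. Of 38 genes, 13 differed (34.2%), against 16.3% of all genes, 4 higher with shPDK1#2 (CNN2, MYH10, PDLIM5 and VCL, background 6.5%) and 9 lower (FHL2, TAGLN2, YAP1, CALD1, FHL1, MYL12B, MYL12A, MYH9 and TPM4, background 9.78%). Of these calls, 5 were lost in some of the 16 alternatives. They were TPM4 (lost in 6), MYH9, MYL12A and CALD1 (3 each) and MYL12B (2). The libraries did not overlap for 18 of the 38, against 30.7% of all genes. MYL9 did not overlap between the hairpins but was not among the 13 genes called (log2 difference 0.40 ± 0.14, adjusted p = 0.0592). The genes took 2.54% of all counts with shCtrl, 2.54% with shPDK1#1 and 2.56% with shPDK1#2, differences that did not separate the libraries (exact p = 1 and 0.9).

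The pathway lists were counted with each hairpin, against 3.06% of all genes called with shPDK1#1 and 26.2% with shPDK1#2. With shPDK1#1, 2 of 24 Hippo regulators passed, VGLL3 higher (log2 fold change 0.39) and AMOTL1 lower (-0.15), and 1 gene each of the further YAP/TEAD targets (IGFBP3, 0.22) and of actin nucleation (TMSB4X, 0.22). Of the adhesion and crosslinking genes 0 of 22 passed with edgeR, and 2 of 22 did not overlap between the groups, below the 19.3% of all genes. With shPDK1#2, 11 of 24 Hippo regulators passed (4 higher, 7 lower), 7 of 18 further YAP/TEAD targets (3 higher, 4 lower), 8 of 24 actin nucleation genes (3 higher, 5 lower) and 12 of 22 adhesion and crosslinking genes (3 higher, 9 lower), where 12% of all genes were higher and 14.2% lower.

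TLN2, a paralog of TLN1, fell by 0.63 and TNS3, a tensin of integrin adhesions, by 0.44 with shPDK1#2. VGLL3 rose by 0.54. SVIL rose by 0.39, PDLIM1 by 0.38 and TMSB4X by 0.27.

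The sphere and knockdown experiments, which share no libraries, were set side by side. Of the 8 genes higher in OSCs, 4 were lower with shPDK1#2 (MYL12A, TAGLN2, PDLIM7 and YAP1) and 0 higher. Of the 24 genes lower in OSCs and tested in both experiments, 7 were higher with shPDK1#2 (29.2%: ACTB, MYH10, MYL9, CNN2, CFL1, VCL and PDLIM5) and 4 were lower (16.7%: MYL12B, FLNC, FHL1 and AMOTL2). Over all genes the opposite direction was also the more frequent, since 30.6% of the 4580 genes higher in OSCs were lower with shPDK1#2 and 6.88% higher, and 23.7% of the 4418 genes lower in OSCs were higher with shPDK1#2 and 6.11% lower. AMOTL2, the YAP target, was lower both in OSCs and with shPDK1#2. FHL2, with the largest fall with shPDK1#2, did not differ between OSCs and non-OSCs at the threshold.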

How the data were processed

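RNA of 15 libraries was sequenced in pairs on an Illumina NovaSeq instrument after preparation with a NEBNext Ultra RNA kit, whose strand setting is not given in the sources used here. Per the submitters' processing notes, the tools named were FastQC 0.12.1, Trimmomatic 0.39, STAR 2.7.11a and RSEM 1.3.3 with GRCh38.p14. The authors deposited expected counts per gene as estimated by RSEM, in 1 table for the 6 OSC and non-OSC libraries and 1 for the 9 hairpin libraries, and 6.85% and 6.92% of their values were not whole. Columns named for adherent (2D) or sphere (3D) culture were matched to the non-OSC and OSC labels, and 0 columns were left unmatched.

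Expected counts were rounded, genes named by GENCODE 44, low counts removed with filterByExpr, and groups compared within each table with edgeR 4.0.16 (R 4.3.3) by the quasi-likelihood test with TMM factors and Benjamini-Hochberg adjustment over all genes tested. The 9 hairpin libraries shared 1 fit. An adjusted p under 0.05 was called. All CPM values use TMM-scaled library sizes, and levels between genes were divided by canonical transcript length. Figures were drawn with matplotlib 3.10.9. Shares were compared by exact two-sided permutation. The procedure was tested on simulated data. No library was a repeat deposit of another, since the chi-square divided by its degrees of freedom was 1.96 to 3.56 between replicates. Intervals were not computed for single counts, and the floor of 3 counts covers counting error only.

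The genes and pathway lists were chosen with earlier results of these data known. A further list of pathway regulators is not reported here. Values per library are given for the 6 largest rises and falls in OSCs and the 4 per hairpin, among called genes of at least 10 CPM whose groups did not overlap, and for 10 genes whatever their values (ACTB, ACTG1, YAP1, WWTR1, TEAD1, TEAD4, LATS2, AMOTL2, ANKRD1 and PDK1), and of each list the 2 largest rises and falls were eligible. ANKRD1 in the hairpin experiment is given as a range of counts per condition. Values per library of ACTA2 under the hairpins and of TPM4 in OSCs were added after they were seen. DESeq2 1.42.0, other scalings and filters, a replicate block and leaving out each library were tried as alternatives.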

Additional observations from a re-analysis of the deposited data

How the results depend on the processing

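The number of the genes called in OSCs against non-OSCs was 33, and it was 33 with DESeq2, 32 with library size alone, 32 without a filter on low counts and 31 to 33 when single libraries were left out. For shPDK1#1 it was 3, and it was 5 without the filter and 1 to 4 with single libraries left out, 1 without shCtrl replicate 2, shCtrl replicate 3 or shPDK1#1 replicate 3, and 2 without shPDK1#1 replicate 1 or shPDK1#2 replicate 3. The cause was not tested. For shPDK1#2 it was 17 (16 with DESeq2, 15 to 19 with single libraries left out), and for shPDK1#2 against shPDK1#1 it was 13 (13 with DESeq2, 9 to 14 with single libraries left out, 9 without shPDK1#1 replicate 3). The alternatives numbered 12, 16, 16 and 16. Of the called genes, 31 of 33, 1 of 3 (CNN2), 12 of 17 and 8 of 13 passed in every alternative that tested them. ANKRD1, among the 31, was tested in 11 of the 12, since a filter of at least 10 counts in every library removed it. No value changed sign among those called.

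With the replicate block the counts were 35, 4, 18 and 13. The numbers are not shown to pair the libraries, since deviations of same-numbered libraries correlated at 0.0738 to 0.217 between OSCs and non-OSCs and at -0.0583 to 0.301 among the hairpin libraries. Libraries correlated best with their own number in 6 of 6 and 4 of 18 cases, a hint from the data and not from the design.

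Genes under 10 CPM, such as TAGLN and ANKRD1, rest on few counts, and small changes in them were not detectable at this depth.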
